A study of Ovis aries with 18 samples.

Results

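miR-143 and miR-221, the 2 vascular microRNAs (miRNAs, short regulators that pair with messenger RNAs and lower their output) followed here, were 2 of the 364 features counted in the plasma of ewes, of which 107 carried a miRNA name. They were chosen by name, as the rows oar-miR-143 and oar-miR-221, and both passed the filter on low counts that left 168 features for testing. Plasma came from ovariectomized Polish Longwool ewes with estradiol implants, so that both diets share the loss of the ovaries and the hormone replacement. The CTRL group (6 ewes) had a standard diet and the OBESE group (6 ewes) a high-fat diet, in a study concerned with leptin resistance. Blood was taken at weeks 7, 10 and 14 of the diet period, and each of the 6 groups of diet and week has 3 libraries. The labels give no age and do not say which ewe or how many ewes a library holds. The p-values below thus rest on the spread among libraries alone, which may be technical in part, and the same ewes may recur at several weeks of a diet.

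miR-143 is made in smooth muscle cells, where it and its partner miR-145 come from a shared transcript and favour the contractile state of the vessel wall. In fat and liver it has been studied as a regulator of fat cell differentiation and of insulin signalling. miR-221, whose partner is miR-222, is made in endothelium, where it restrains the receptor KIT and the sprouting of vessels, and in smooth muscle, where it favours growth. It has also been studied in the fat tissue of obese people. Both names matched a miRNA gene, MIR143 and MIR221, in the RefSeq genes of sheep assembly ARS-UI_Ramb_v3.0. MIR143 lay between the protein-coding genes IL17B and CSNK1A1, and each miRNA gene lay inside the span of a long noncoding RNA gene. The build behind the counts is not given in the sources used here, so no coordinates are printed.

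Library totals ran from 388574 to 1269829 counts, and the scaling factors (TMM, trimmed mean of M values, which adjusts each total for its few dominant miRNAs) ran from 0.653 to 1.19. Low factors set apart CTRL week 7 replicate 1 (0.653) and CTRL week 14 replicate 3 (0.718), in which miR-16b, an abundant miRNA of blood cells, took 53.9% and 55.1% of the counts. Levels below are CPM, the usual count per fixed library total, with the total scaled in this way. Plasma has no cells of its own, and more vessel or fat cells releasing a miRNA cannot be told apart from more miRNA released per cell. The other defining vascular miRNAs miR-145, miR-126 and miR-222 were not analysed here, so the vascular label rests on the 2 names.

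Both miRNAs were counted in all 18 libraries, miR-143 at the higher level with a median ratio of 9.69. miR-143 stood at 2984 ± 732 CPM and took 0.301% ± 0.088 of the counts (SD, n = 18). It ranked 17 of 364 by its mean level and 12 among the named miRNAs, between miR-29a at 4286 CPM and miR-26b at 2549.6 CPM. miR-221 stood at 311 ± 56.7 CPM and took 0.0315% ± 0.00758 of the counts, rank 70 overall and rank 31 among the named, between miR-30a-3p at 319 CPM and miR-125b at 239.5 CPM. miR-26b had more counts than miR-143 in 5 libraries and miR-30a-3p more than miR-221 in 7, so these neighbours did not separate beyond the spread of the libraries. The yield of a miRNA in such libraries depends on its sequence, so an order between miRNAs is an order of counts.

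The depth behind each value was ample for miR-143 and moderate for miR-221. miR-143 had 1108 counts in CTRL week 10 replicate 1, its lowest count, and 3939 in CTRL week 10 replicate 3, its highest. miR-221 ran from 101 counts in OBESE week 14 replicate 3 (exact Poisson 95% interval 82.3 to 122.7) to 466 in CTRL week 10 replicate 3 (424.6 to 510.3). Such intervals cover counting error only, and are too narrow if the deposited counts are reads, since the sources used here do not say whether they are reads or molecules. For counts of molecules, counting alone gives a coefficient of variation of 2.28% for miR-143 and 7.02% for miR-221. The libraries of a group varied by 25.8% and 18.4%. Among the 96 tested features with a mean of at least 100 CPM the median variation within groups was 24.5%, and counted from the steadiest, miR-221 was number 23 and miR-143 number 52.

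The main question was whether the high-fat diet went with another plasma level of these miRNAs. No such difference was detected for either of them. Over the 3 weeks the OBESE libraries held miR-143 at 3012 ± 839.8 CPM and the CTRL libraries at 2957 ± 657 CPM, and miR-221 at 306 ± 69.3 and 317 ± 44.3 CPM in turn (SD, n = 9 each). The weekly values follow.

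At week 7 the CTRL libraries held miR-143 at 3766, 2117 and 3127 CPM and the OBESE libraries at 4126, 2408 and 2881 CPM (replicates 1, 2 and 3 in turn). miR-221 stood at 349.8, 298 and 308 CPM in CTRL and at 351, 418 and 312 CPM in OBESE. For both miRNAs the ranges of the diets overlapped, and replicate 2 was the lowest for miR-143 in either diet. OBESE replicate 2, with little miR-143, had the highest miR-221 level of the series.

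At week 10 miR-143 stood at 2641, 1804 and 3115 CPM in CTRL and at 2000.5, 1899.8 and 3444 CPM in OBESE libraries. Here miR-221 stood at 386, 262 and 369 CPM in CTRL and at 282.5, 356 and 216 CPM in OBESE. The diets overlapped again, and OBESE replicate 3 combined the highest miR-143 with the lowest miR-221 level of that week.

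At week 14 miR-143 stood at 3512, 3502 and 3026 CPM in CTRL and at 4039.5, 2669 and 3643 CPM in OBESE libraries. The CTRL libraries lay within the OBESE range. miR-221 stood at 332, 278 and 272 CPM in CTRL and at 310.3, 310.1 and 194 CPM in OBESE, where replicate 3 held the lowest level of the series.

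**Figure D1:**
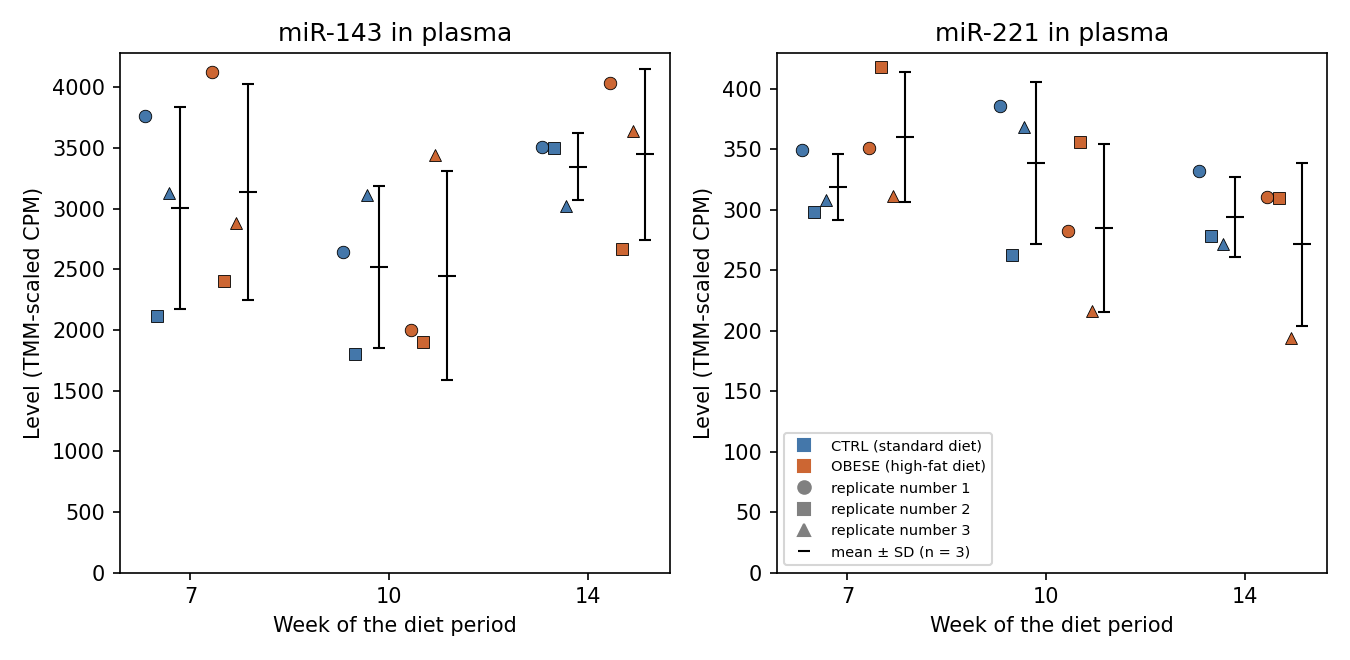
Level of miR-143 (left) and miR-221 (right) in TMM-scaled CPM on a linear axis from 0, by week of the diet period, with one point per library, colour for diet, marker shape for replicate number and a black bar for the mean ± SD of 3 libraries. The diets overlap at each week for both miRNAs, and miR-143 has its lowest group means at week 10, 2519.9 CPM in CTRL and 2448 CPM in OBESE.

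One edgeR quasi-likelihood model was fitted to the 168 features in all 18 libraries, with Benjamini-Hochberg adjustment over the 168. For miR-143 the OBESE minus CTRL difference averaged over weeks was 0.02 on the log2 scale (SE 0.166, edgeR adjusted p = 0.969), with a 95% interval from -0.33 to 0.37, that is a fold from 0.797 to 1.29. For miR-221 it was -0.06 (SE 0.146, edgeR adjusted p = 0.892), with an interval from -0.37 to 0.25, a fold from 0.774 to 1.19. The miR-143 difference was negative in 7 of the 18 fits that left out a library, while the miR-221 difference was negative in all 18, from -0.15 to -0.0094. With no scaling factor the difference was 0.21 for miR-143 and 0.11 for miR-221, and at week 7 it was 0.35 and 0.46. The median of the 168 features then stood at 0.16 in this comparison, 0.25 for diet at week 7, 0.15 for diet at week 14 and 0.14 from week 7 to 10 in CTRL. A direction here is thus relative to the median feature. The intervals come from a model that treats the weeks as independent, and for this average would be too narrow where libraries share ewes. For a comparison of weeks within a diet, shared ewes could make an interval too wide instead.

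Week by week the picture was the same. miR-143 differed between the diets by 0.06 (SE 0.288) at week 7, by -0.04 (SE 0.288) at week 10 and by 0.04 (SE 0.287) at week 14, with edgeR adjusted p of 0.981, 0.961 and 0.951. A single week left wider intervals, from -0.54 to 0.67 at week 7, that is up to a 1.59-fold higher level in OBESE. miR-221 differed by 0.18 (SE 0.253) at week 7, by -0.25 (SE 0.252) at week 10 and by -0.11 (SE 0.253) at week 14, with edgeR adjusted p of 0.880, 0.795 and 0.910. The values of miR-221 at weeks 7 and 10 had opposite signs, but the interaction of diet and week did not pass (edgeR adjusted p = 0.988, and 0.992 for miR-143). The miR-221 difference was 0.0013 at week 7 without OBESE week 7 replicate 2 and -0.04 at week 10 without OBESE week 10 replicate 3. edgeR called 0 of 168 features (0%) for the interaction, DESeq2 0 and limma-voom 0, with 7 (4.17%) at an unadjusted edgeR p under 0.05.

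These values sit within a data set in which few features separated. edgeR called 0 of 168 features (0%) for the averaged diet difference at an adjusted p of 0.05, and 19 (11.3%) had an unadjusted p under 0.05. At week 7 the calls were 0 (0%), with 9 features (5.36%) at an unadjusted p under 0.05, at week 10 they were 0 with 11 (6.55%), and at week 14 they were 0 with 13 (7.74%). DESeq2 gave 2 calls for the averaged difference and 0 at each week, limma-voom 0 in each, and neither member was among the calls. The miR-143 difference ranked 159 of 168 by size for the averaged comparison and that of miR-221 137, so both were among the smaller diet differences measured, where the median size over all features was 0.23. The diets did not overlap at week 7 for 15 features (8.93%), at week 10 for 22 (13.1%) and at week 14 for 16 (9.52%), and neither member was among them.

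**Figure D2:**
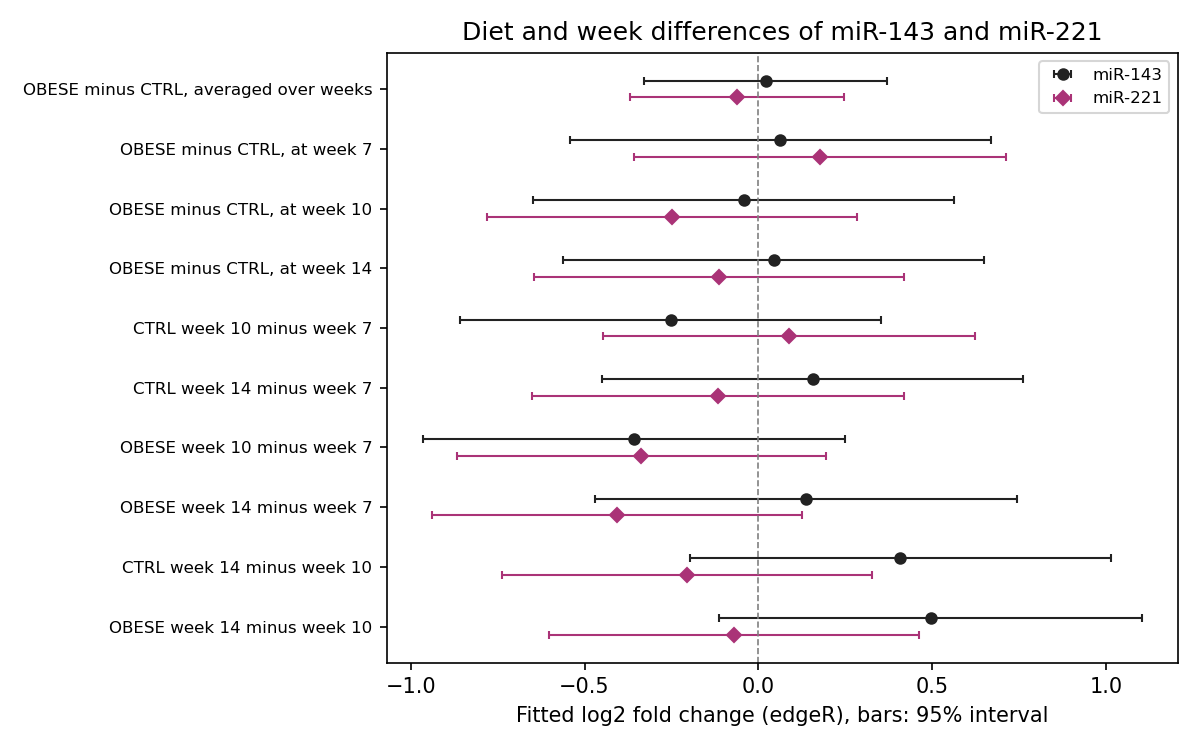
Fitted log2 fold changes (horizontal axis) of miR-143 and miR-221 for the OBESE minus CTRL comparisons and for the comparisons of weeks within a diet, with bars for the 95% interval of the edgeR model. Every interval includes 0, and the estimates farthest from 0 are those of miR-143 at week 14 against week 10.

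The next question was how the levels moved over the diet period. Ordered by mean level, miR-143 was highest at week 14 (OBESE 3450.5 ± 705 CPM, CTRL 3347 ± 278 CPM), then at week 7 (OBESE 3138 ± 887 CPM, CTRL 3003 ± 832 CPM) and lowest at week 10 (CTRL 2519.9 ± 664 CPM and OBESE 2448 ± 864 CPM, SD, n = 3 each). With TMM scaling the diets thus stood side by side at each week in this order. Neighbours in it differed by less than the smaller of their SDs, and all their ranges overlapped. The highest group mean was 1.41-fold the lowest, while the highest library was 2.29-fold the lowest. With no scaling factor the diets did not pair by week. OBESE week 14 then stood at 3707 CPM, OBESE week 7 at 3286 and CTRL week 14 at 3239 CPM. OBESE week 10 followed at 2702 CPM, CTRL week 7 at 2577 and CTRL week 10 at 2569 CPM.

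None of the week comparisons passed. In CTRL libraries miR-143 had a log2 fold change of -0.25 (SE 0.288) from week 7 to week 10 and of 0.16 (SE 0.288) from week 7 to week 14, with edgeR adjusted p of 0.947 and 0.977. In OBESE libraries the values were -0.36 (SE 0.288) and 0.14 (SE 0.288), with edgeR adjusted p of 0.897 and 0.935. The lower level at week 10 leaned on single libraries, since the difference from week 7 was -0.0075 without CTRL week 7 replicate 1 and -0.0097 without OBESE week 7 replicate 1. In CTRL it leaned on the scaling too, with a difference of -0.0039 with no scaling factor, against -0.28 in OBESE. From week 10 to week 14, a comparison added after the values were seen, miR-143 had 0.41 (SE 0.288, edgeR adjusted p = 0.989) in CTRL and 0.50 (SE 0.288, edgeR adjusted p = 0.668) in OBESE libraries. These were its farthest estimates from 0, with intervals from -0.20 to 1.02 and from -0.11 to 1.10. They share the week 10 libraries with the comparison of weeks 10 and 7. In the CTRL libraries the week 10 values reached 3115 CPM, just above the lowest week 14 value of 3026 CPM.

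miR-221 had another order, with OBESE week 7 highest at 360.4 ± 53.9 CPM, followed by CTRL week 10 at 339 ± 66.96, CTRL week 7 at 319 ± 27.3, CTRL week 14 at 294 ± 32.9, OBESE week 10 at 285 ± 69.8 and OBESE week 14 at 271 ± 67.2 CPM (SD, n = 3 each). Neighbours again differed by less than the smaller SD, and the highest group mean was 1.33-fold the lowest. The OBESE libraries thus held both the highest and the lowest group mean of miR-221.

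In OBESE libraries miR-221 at week 14 did not overlap week 7, with 194 to 310.3 CPM against 312 to 418 CPM, the groups all but touching. The log2 fold change was -0.41 (SE 0.253, 95% interval -0.94 to 0.13, edgeR adjusted p = 0.703), which did not pass the test. All 168 features gave 23 without overlap (13.7%) in this comparison, 14 of them lower at week 14 (8.33%), so the lack of overlap was common. edgeR called 0 features here (0%), with 13 (7.74%) at an unadjusted p under 0.05, DESeq2 called 0 and limma-voom 0. From week 7 to week 10 the OBESE libraries had -0.34 (SE 0.252, edgeR adjusted p = 0.897), which shrank to -0.03 without OBESE week 7 replicate 2, and from week 10 to week 14 they had -0.07 (SE 0.252, edgeR adjusted p = 0.971).

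In CTRL libraries miR-221 had 0.09 (SE 0.254) from week 7 to week 10, -0.12 (SE 0.254) from week 7 to week 14 and -0.21 (SE 0.253) from week 10 to week 14, with edgeR adjusted p of 0.947, 0.977 and 0.989. The change from week 7 to week 14 was negative in both diets, although with no scaling factor the CTRL value was 0.036. edgeR called 0 features (0%) in each of the other comparisons of weeks too, limma-voom called 0, and DESeq2 called 2 for OBESE week 14 against 10 and 0 in the rest. Features at an unadjusted p under 0.05 numbered 3 (1.79%) for CTRL week 10 against 7, 6 (3.57%) for CTRL week 14 against 7, 5 (2.98%) for CTRL week 14 against 10, 7 (4.17%) for OBESE week 10 against 7 and 17 (10.1%) for OBESE week 14 against 10. Neither member was among them in any of the 11 comparisons, its smallest unadjusted edgeR p being 0.103 for miR-143 from week 10 to week 14 in OBESE.

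Because the scaling of a library cancels in a ratio, the miR-143 count was also divided by the miR-221 count of the same library. The ratio ran from 5.34 in OBESE week 10 replicate 2 to 18.8 in OBESE week 14 replicate 3, with a median of 9.69 over the 18 libraries. On the log2 scale, with 0.5 added to each count, it stood at 3.28 ± 0.634 in OBESE and 3.19 ± 0.337 in CTRL libraries (SD, n = 9 each). The difference averaged over weeks was 0.09 (two-sided exact permutation of diets within weeks, p = 0.693), and was -0.06 without OBESE week 10 replicate 3 and -0.0033 without OBESE week 14 replicate 3. The difference was smaller than the spread between libraries.

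Within the diets the ratio shows how miR-143 moved over the weeks relative to miR-221, and moves shared by both cancel in the ratio. In CTRL libraries it stood at 10.8, 7.099 and 10.1 at week 7, at 6.84, 6.87 and 8.45 at week 10 and at 10.6, 12.6 and 11.1 at week 14. Week 14 did not overlap week 10, a log2 difference of 0.63 (exact permutation p = 0.1, the smallest that 3 libraries against 3 allow, and 0.667 after Benjamini-Hochberg adjustment over 10 ratio comparisons). In OBESE libraries the ratio stood at 11.8, 5.75 and 9.24 at week 7, at 7.08, 5.34 and 15.9 at week 10 and at 13.02, 8.61 and 18.8 at week 14. The log2 difference between weeks 14 and 10 was 0.60 (exact permutation p = 0.4), of the size seen in CTRL but with overlapping ranges. Between weeks 14 and 7 it was 0.58 in OBESE (exact permutation p = 0.3) and 0.31 in CTRL (p = 0.2). Between weeks 10 and 7 it was -0.32 in CTRL (exact permutation p = 0.2). In OBESE it was -0.018, where both miRNAs had lower means at week 10. With same-numbered libraries of a diet taken as pairs, an alternative added later, the ratio was higher at week 14 than at week 10 in 3 of 3 CTRL and 3 of 3 OBESE pairs (exact sign-flip permutation p = 0.25 in each diet, the smallest that 3 pairs allow). The same p came from OBESE week 14 against 7, higher in 3 of 3 pairs, and CTRL week 10 against 7, higher in 0 of 3. CTRL week 14 was above week 7 in 2 of 3 pairs (exact sign-flip permutation p = 0.5) and OBESE week 10 above week 7 in 1 of 3. OBESE replicate 2 had the lowest ratio of its diet at each week, and OBESE replicate 3 the highest at weeks 10 and 14.

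**Figure D3:**
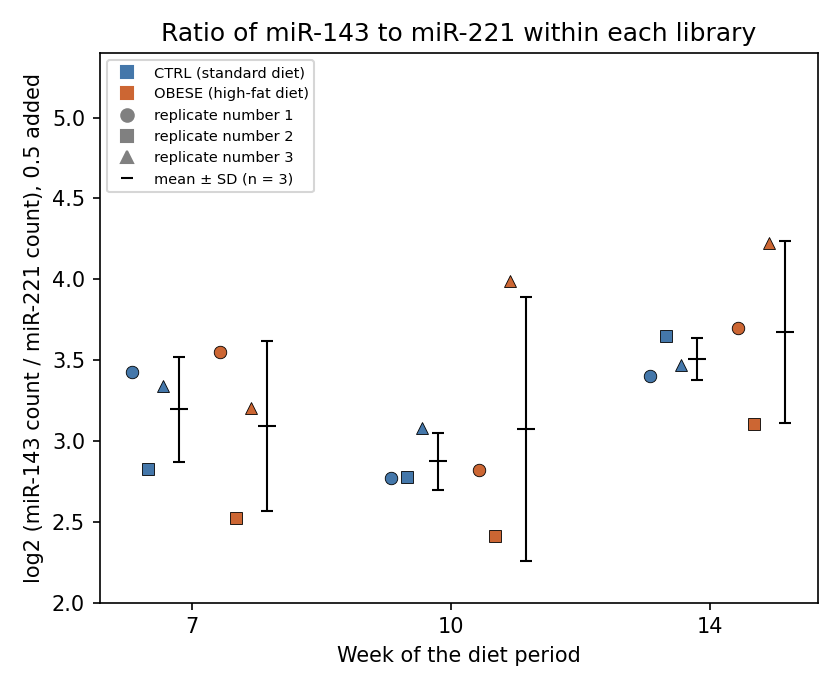
log2 ratio of the miR-143 to the miR-221 count within each library (vertical axis), by week of the diet period, with one point per library, colour for diet, marker shape for replicate number and a black bar for the mean ± SD of 3 libraries. In CTRL the 3 libraries of week 14 lie above those of week 10, and the OBESE libraries spread more widely, from 2.41 to 4.23.

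The 2 miRNAs did not follow each other across libraries. The Pearson correlation of their log2 CPM was -0.12 over the 18 libraries, and -0.09 after removing the group means, given as a description because libraries may share ewes and share the scaling. Among the 53 other tested named miRNAs, the closest in pattern to miR-143 were miR-30a-3p (r = 0.61 over 18 libraries, 0.70 within groups), miR-199a-3p (0.52 and 0.62), a miRNA of mesenchymal cells and platelets, and let-7g (0.43 and 0.44). miR-191, also abundant in platelets, had the lowest correlation with miR-143 of the 53, at -0.52 (-0.39 within groups). The closest to miR-221 were miR-10a (0.65 over 18 libraries and 0.67 within groups), a miRNA of endothelium, let-7d (0.62 and 0.63) and miR-106b (0.61 and 0.71). miR-106b, a relative of miR-17, is counted below among red blood cell miRNAs. The other tested miRNAs of that list had -0.09 (miR-16b) and 0.0089 (miR-25) with miR-221. Other tested miRNAs listed below for endothelium did not share 1 direction with miR-221. They had 0.37 (miR-23a), 0.36 (miR-23b), 0.23 (miR-27a), 0.11 (miR-99a), -0.16 (miR-125b), -0.27 (miR-10b) and -0.44 (miR-26a). miR-199a-3p, near miR-143, had -0.54 with miR-221. The other tested platelet miRNAs did not share 1 direction with miR-221 either, at 0.46 (miR-191), 0.37 (miR-21) and -0.44 (miR-26a). The median over the 53 was 0.12 for miR-143 and -0.08 for miR-221.

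Lists of miRNAs of vessels and fat were set beside them. Their counts and medians include miR-221 (endothelium) and both members (obese fat). Of 15 miRNAs listed for endothelium 9 were tested, 6 with a positive and 3 with a negative diet difference averaged over weeks (8 and 1 with no scaling factor), a median of 0.04 and 0 called by edgeR. Over all 168 features 82 were positive and 86 negative, with a median of -0.0022, and 121 and 47 with no scaling factor. miR-26a, a regulator of vessel growth and insulin sensitivity, had 1517 CPM with the high-fat and 1215 CPM with the standard diet, a difference of 0.32 (SE 0.132, edgeR adjusted p = 0.285). miR-10a had -0.11 (SE 0.142) and miR-10b 0.18 (SE 0.147), both from HOX gene clusters. From the miR-23 and miR-27 clusters of endothelium, miR-23a had 0.17 (SE 0.147), miR-23b -0.32 (SE 0.219) and miR-27a 0.04 (SE 0.121). miR-99a had 0.25 (SE 0.190) and miR-125b, its neighbour in a shared cluster, 0.04 (SE 0.209). At the single weeks the list had 6 positive and 3 negative at week 7, 6 and 3 at week 10 and 3 and 6 at week 14, against 9 and 0, 6 and 3, and 8 and 1 with no scaling factor. Over all 168 features the weekly counts were 82 and 86, 82 and 86, and 83 and 85. With no scaling factor these became 118 and 50, 95 and 73, and 107 and 61.

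Of 15 miRNAs studied in obese fat 12 were found, as 13 tested features with both arms of miR-30a, 9 positive and 4 negative for the averaged diet difference (13 and 0 with no scaling factor), a median of 0.04 and 0 called by edgeR. miR-30a-5p, of a family that favours the formation of fat cells, had 2618 CPM with the high-fat and 1644 CPM with the standard diet, a difference of 0.67 (SE 0.175, edgeR adjusted p = 0.113), the farthest from 0 in the list. miR-103 and miR-107, regulators of insulin sensitivity, had 0.01 (SE 0.180) and -0.02 (SE 0.213). miR-29a had 0.23 (SE 0.133), miR-150, a miRNA of lymphocytes, 0.38 (SE 0.322), miR-26b -0.02 (SE 0.159), miR-21 -0.0033 (SE 0.147) and miR-30a-3p 0.10 (SE 0.139). miR-143 and miR-221 thus lay with miR-103, miR-107, miR-21, miR-26b, miR-27a and miR-125b among the members with averaged values next to 0. Some of these averages joined weeks of opposite sign. At weeks 7, 10 and 14 miR-26b had 0.64, -0.35 and -0.35, and miR-107 had -0.56, 0.14 and 0.36, while miR-143 had 0.06, -0.04 and 0.04.

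**Figure D4:**
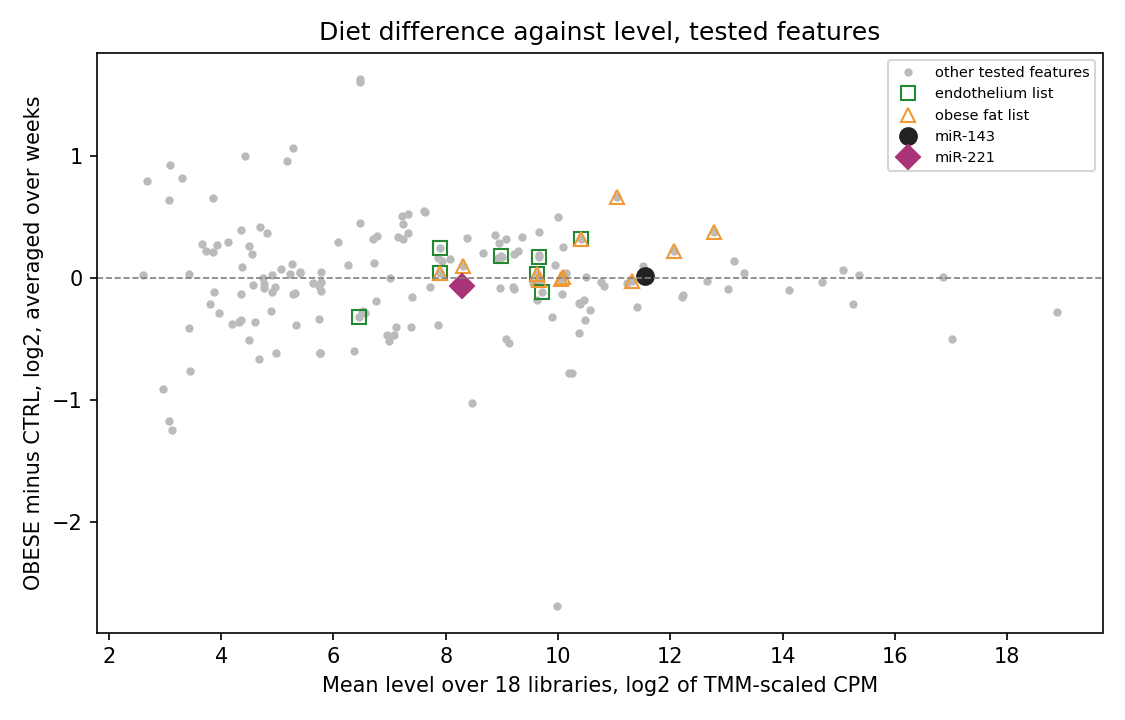
OBESE minus CTRL difference averaged over weeks (vertical axis, log2) against mean level (horizontal axis, log2 of TMM-scaled CPM) for the 168 tested features, with miR-143, miR-221 and the endothelium and obese fat lists marked. miR-143 at 0.02 and miR-221 at -0.06 lie close to the zero line, and miR-30a-5p at 0.67 is the highest triangle.

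Markers of other cells were summed in the same libraries. The 3 tested red blood cell miRNAs of 7 listed (miR-16b, miR-25 and miR-106b, each with a negative diet difference, although 1 of the 3 was positive with no scaling factor) added to between 397363 and 828880 CPM in CTRL and between 359332 and 578808 CPM in OBESE libraries, the top of the CTRL range being CTRL week 7 replicate 1. Its low scaling factor (0.653) raised that sum, since miR-16b took 53.9% of its counts. CTRL week 14 replicate 3 came next at 769278 CPM, also raised by a low factor (0.718). The 5 tested platelet miRNAs of 7, among which miR-221 and miR-26a are also counted, added to between 30256 and 45887 CPM in CTRL and between 26455 and 57617 CPM in OBESE. The muscle miRNA miR-133, alone of 5 listed, ran from 2.38 to 127 CPM in CTRL and from 7.68 to 41.3 CPM in OBESE, and the 2 liver miRNAs miR-148a and miR-194 of 4 added to between 59.3 and 132 CPM and between 68.2 and 177 CPM. The low miR-133 values rest on very few counts, the lowest being in CTRL week 10 replicate 1, with a library total of 388574. The highest was in CTRL week 7 replicate 1, with the low scaling factor. The part of these cells in the levels of miR-143 and miR-221 was not tested. Without both CTRL libraries with low scaling factors the diet difference was 0.07 for miR-143 and -0.06 for miR-221.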

How the data were processed

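Small RNA libraries from 200 µL of plasma were made with the QIAseq miRNA kit, with deduplication by molecular identifiers, and read as single reads of 76 nucleotides on an AVITI instrument, per the labels' protocols. Tools listed in the submitters' processing notes, with no role, are cutadapt 4.9, Bowtie 1.3.1 and DESeq2 1.42. For the build, the annotation and reads that match several miRNAs, nothing is given in the sources used here. What the authors deposited is a raw count per miRNA and library. The series table and the 18 single files differed in 0 values.

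In R 4.3.3, edgeR 4.0.16 kept 168 features (filterByExpr by group, minimum count 10, minimum total 15), scaled by TMM and fitted glmQLFit and glmQLFTest to 6 groups, with two-sided tests and Benjamini-Hochberg adjustment (threshold 0.05). SE was taken as the size of the fitted log2 value over the root of its F statistic, and intervals are at 95%. Correlations used log2 CPM with a prior count of 2. Alternatives were DESeq2 1.42.0, limma-voom 3.58.1, other scaling, no filter, replicate blocks, the compared groups alone and libraries left out. The model was tested on simulated independent libraries with larger diet differences than those of the members, which covers neither small differences nor shared ewes. The ratio was tested by exact permutation of diets within weeks (8000 assignments).

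Named are both members, the 3 named miRNAs closest to each by Pearson correlation, their neighbours in level and tested list members. miR-199a-3p and the endothelium, red blood cell and platelet lists against miR-221, and miR-191 against miR-143, were chosen after their values were seen. Members and lists were chosen with earlier results of these data known, and the comparison of weeks 14 and 10 was added later. Same-numbered libraries of a diet deviated together (correlation of deviations above 0.1) in all 3 pairs for CTRL weeks 7 and 10, CTRL weeks 10 and 14, OBESE weeks 7 and 14 and OBESE weeks 10 and 14. This pairing comes from the data, not the labels. CTRL weeks 7 and 14 and OBESE weeks 7 and 10 failed it, as did the diets at each week. Across the diets, whose ewes differ, CTRL week 7 and OBESE week 14 passed it too (0.25, 0.19 and 0.11). Same-numbered pairs had correlations above 0.1 in 14 of 27 cases across diets and 16 of 18 within a diet. For different numbers this held in 7 of 54 cases across diets and 2 of 36 within a diet. A shared number thus does not by itself show shared ewes.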

Additional observations from a re-analysis of the deposited data

How the results depend on the processing

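Of the 532 recomputed differences behind 20 member results, 498 kept their sign and 34 changed it, and 0 passed an adjusted p of 0.05, nor did any of the 52 recomputed interactions of diet and week. With no scaling factor the values that changed sign were 0.11 for miR-221 averaged over weeks, 0.073 for miR-143 between diets at week 10, 0.025 for miR-221 between diets at week 14 and 0.036 for miR-221 from week 7 to 14 in CTRL. Between diets, miR-143 was 0.066 at week 10 with no filter, -0.0062 at week 14 without both CTRL libraries with low TMM factors, -0.075 there with only the groups compared, and -0.024 with counts summed over weeks. The replicate block gave miR-143 at week 14 a diet difference of -0.00083 and changed no call of a member. With the block within diet, miR-143 from week 10 to 14 had 0.45 in CTRL and 0.50 in OBESE (edgeR adjusted p 0.764 and 0.381), and miR-221 from week 7 to 14 in OBESE had -0.43 (0.343). Leaving out each library gave miR-143 diet differences from -0.10 to 0.067 averaged over weeks, -0.28 to 0.24 at week 7, -0.31 to 0.13 at week 10 and -0.12 to 0.084 at week 14, and -0.012 to 0.47 from week 7 to 14 in OBESE. From week 7 to 10 it ran from -0.42 to -0.0075 in CTRL and from -0.61 to -0.0097 in OBESE. miR-221 ran from -0.046 to 0.23 (CTRL weeks 7 to 10), -0.22 to 0.029 (CTRL weeks 7 to 14) and -0.30 to 0.064 (OBESE weeks 10 to 14), with -0.45 to -0.03 for OBESE weeks 7 to 10 and diet differences of 0.0013 to 0.26 at week 7 and -0.40 to -0.041 at week 10, and the ratio between diets from -0.064 to 0.20. Calls over all features for the averaged diet difference were 0 with edgeR, 4 with no filter, 2 with DESeq2 and 0 to 2 without a library. For OBESE week 14 against 10 they were 0, 2 with no filter, 2 with DESeq2, 2 with the replicate block, 1 with only the groups compared and 0 to 2 without a library, and for the diets at week 14 they were 0 to 1 without a library. The cause was not tested. Depth limits miR-221 more than miR-143 in counting error (7.02% against 2.28%, for counts of molecules). The libraries of a group varied less for miR-221 (18.4% against 25.8%).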
